A study of Mus musculus with 72 samples.

Results

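The genes examined were Hcn2, Hcn3 and Hcn4, which encode hyperpolarisation-activated cyclic nucleotide-gated (HCN) channels. They were taken by name, as 3 of the 53715 gene rows counted, and are described in all 12 groups of the study. The data are RNA-seq libraries of 18 male C57BL/6J mice aged 18 weeks: 6 Gnb5 Wild-type (Gnb5+/+), 6 heterozygous (Gnb5+/-) and 6 Knock-out (Gnb5-/-) mice. In mutants an exon of Gnb5, which encodes the G protein subunit beta 5, is deleted in the germline, so every tissue carries the deletion. Atria and ventricles were profiled in the 3 genotypes, and cerebellum, hippocampus and cerebral cortex in Gnb5+/+ and Gnb5-/- mice alone, with 6 mice in each group. Atria were taken whole, left and right, and thus also held sinoatrial and atrioventricular cells, while the brain regions were dissected whole. The mouse line was recovered from cryopreserved sperm, and litters with Gnb5-/- pups were given softened food around weaning.

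HCN channels open when the membrane hyperpolarises and carry an inward cation current, called the funny current in the heart and the h-current in neurons. Cyclic AMP binds to the channels and shifts their opening, which links them to G protein-coupled receptors, and thus to sympathetic and vagal control of heart rate. HCN4 is the main pacemaker channel of the sinoatrial node. HCN2 is found in working heart muscle and widely in neurons, where it sets resting potential and rhythmic firing, and HCN3, whose opening is little affected by cyclic AMP, is found in brain. Other HCN genes are not analysed here.

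The 3 genes are paralogues. The coding stretch around the potassium-channel-type selectivity filter is shown because all 3 genes encode the filter and the letters around it differ between them. In each line the capitals mark the codons of the glycine, tyrosine and glycine of the filter, 5′ to 3′ on the coding strand of GRCm38, and each stretch lies in exon 4 of its gene. They lie at chr10:79728926-79729000 on the plus strand, chr3:89150973-89151047 on the minus strand and chr9:58855558-58855632 on the plus strand, in this order.
Hcn2: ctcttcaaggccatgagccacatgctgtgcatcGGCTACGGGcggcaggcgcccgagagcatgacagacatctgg
Hcn3: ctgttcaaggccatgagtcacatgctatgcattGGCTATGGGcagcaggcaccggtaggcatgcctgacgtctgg
Hcn4: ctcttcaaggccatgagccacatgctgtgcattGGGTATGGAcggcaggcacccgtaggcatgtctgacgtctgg

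Of these 75 bases, 61 were identical between Hcn2 and Hcn3, 64 between Hcn2 and Hcn4 and 67 between Hcn3 and Hcn4. Over the aligned coding sequences 76.1% of bases were identical between Hcn2 and Hcn3, 80.0% between Hcn2 and Hcn4 and 78.6% between Hcn3 and Hcn4. The longest run of bases shared by any pair was 33, shorter than a sequencing read, so reads of the paralogues could be told apart. The reading frames held 863 codons in Hcn2, 779 in Hcn3 and 1201 in Hcn4, stop codon not included.

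Hcn2 (ENSMUSG00000020331) lies on chromosome 10 from 79716634 to 79736108, Hcn3 (ENSMUSG00000028051) on chromosome 3 from 89146074 to 89160196 and Hcn4 (ENSMUSG00000032338) on chromosome 9 from 58823412 to 58863175. Hcn4 is on the chromosome of Gnb5, 16.4 Mb away. Hcn3 shares 711 exonic bases with Pklr on the opposite strand, and the strand setting of the counting was not stated. Pklr stayed at or below 0.24 CPM (counts per 1000000 reads) in every library, far below Hcn3 in brain. In heart the group means were 0.122 to 0.177 CPM for Hcn3 and 0 to 0.0649 CPM for Pklr. With so few counts, reads of the 2 genes on their shared bases cannot be told apart there. Reads on genes numbered 29204390 to 48807435 per library, with a median of 38864900. The atrial and ventricular muscle lists, of 4 genes each, differed between the heart tissues in the direction of their names for all 4 genes (edgeR adjusted p below 0.05), as did all 3 neuronal and all 4 heart muscle genes between heart and brain, in comparisons that called 51.6% and 90.9% of all genes. By DESeq2, another test of counts, the atrial and neuronal genes were all called, but 2 of 4 ventricular and 0 of 4 heart muscle genes. The heart muscle genes summed to as much as 215 CPM in a wild-type hippocampus library and 63.6 CPM in a wild-type cerebellum library. In wild-type atria they summed to at least 47995 CPM. Of the brain region lists, the 4 cerebellar genes were higher in cerebellum than in both other regions, while 3 of 4 hippocampal genes were higher in hippocampus than in cortex, where 68.3%, 69.1% and 33.5% of all genes were called for cerebellum against hippocampus, cerebellum against cortex and hippocampus against cortex. Gnb5 was lower in every Gnb5-/- library than in any Gnb5+/+ library of its tissue, at 2.06 ± 0.460 against 33.4 ± 2.91 CPM in atria (mean ± SD, n = 6).

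Gnb5-/- cortex replicate 3 and Gnb5-/- cerebellum replicate 2 stood apart from the other libraries of their tissues, with a median correlation of 0.923 and 0.948. In that cortex library 6.86% of reads were assigned to no counted feature, against 13.1 to 15.6% in Gnb5+/+ cortex. In that cerebellum library the share was 8.02%, against 16.1 to 17% in Gnb5+/+ cerebellum. Gnb5-/- cortex replicate 5 was next, with a median correlation of 0.976 and 8.32% of reads assigned to no counted feature. The comparisons of Gnb5-/- brain libraries were also run without each of these 3.

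In the wild-type brain Hcn2 was the highest of the 3 genes. Levels were compared between genes as CPM per kilobase of exon, normalised by edgeR's trimmed mean method (TMM). Hcn2 reached 26.8 ± 1.29 CPM per kilobase in cortex, 21.4 ± 1.17 in hippocampus and 18.1 ± 0.960 in cerebellum (mean ± SD, n = 6). Hcn3 followed at 3.49 ± 0.369 CPM per kilobase in cortex, 2.62 ± 0.152 in hippocampus and 2.08 ± 0.228 in cerebellum. Hcn4 was the lowest in brain, at 0.877 ± 0.108 CPM per kilobase in cortex, 0.538 ± 0.0883 in cerebellum and 0.236 ± 0.0319 in hippocampus. The order Hcn2, Hcn3, Hcn4 thus stood in the group means of all 3 regions.

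The heart had another order. In wild-type ventricles Hcn2 stood at 6.35 ± 1.43 CPM per kilobase and Hcn4 at 2.69 ± 0.748. In wild-type atria Hcn2 stood at 2.25 ± 0.511 and Hcn4 at 1.84 ± 1.39, so the 2 means lay within the spread of either gene. Hcn3 was near the limit of detection in both, at 0.0369 ± 0.0247 CPM per kilobase in atria and 0.0294 ± 0.0234 in ventricles. These low Hcn3 levels rested on 0 to 8 counts per wild-type heart library.

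**Figure D1:**
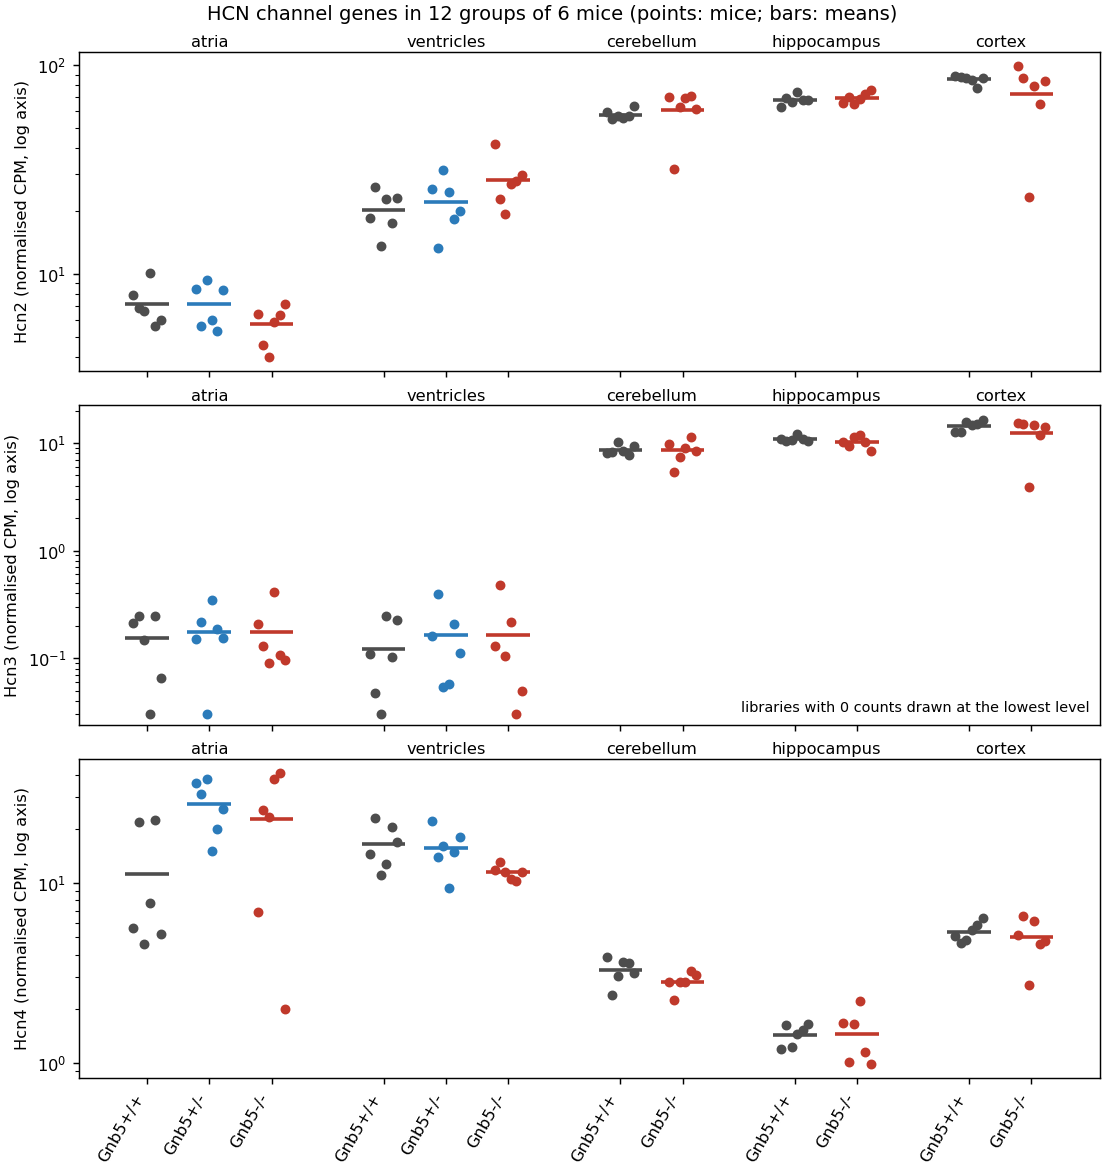
Normalised CPM of Hcn2, Hcn3 and Hcn4 (log axes, 1 panel per gene) in the 12 groups of tissue and genotype; each point is 1 mouse and each bar the mean of 6 mice, and Hcn3 libraries with 0 counts are drawn at the lowest level. Hcn2 and Hcn3 sit higher in brain than in heart, Hcn4 sits lowest in hippocampus, and Hcn4 in Gnb5-/- atria spreads from 2.00 to 40.7 CPM.

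As shares of the summed level per kilobase, Hcn2 made up 85.9 ± 1.61% of the 3 genes in wild-type cortex, 88.2 ± 0.425% in hippocampus and 87.4 ± 0.871% in cerebellum (mean ± SD, n = 6). Hcn3 made up 11.2 ± 1.30%, 10.8 ± 0.511% and 10.04 ± 0.985% in the same regions, and Hcn4 2.82 ± 0.385%, 0.973 ± 0.119% and 2.59 ± 0.426%. In wild-type ventricles Hcn2 held 70.1 ± 4.88% and Hcn4 29.6 ± 5.02%. In wild-type atria Hcn2 held 58.9 ± 18.9% and Hcn4 40.2 ± 18.8%, the most variable mixture of the 5 wild-type tissues. The share of Hcn4 ran from 26.2 to 66.8% among those 6 atria. The 3 genes summed to 4.13 ± 1.31 CPM per kilobase in wild-type atria, 9.07 ± 1.96 in ventricles, 20.8 ± 1.06 in cerebellum, 24.2 ± 1.29 in hippocampus and 31.1 ± 1.15 in cortex.

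**Figure D2:**
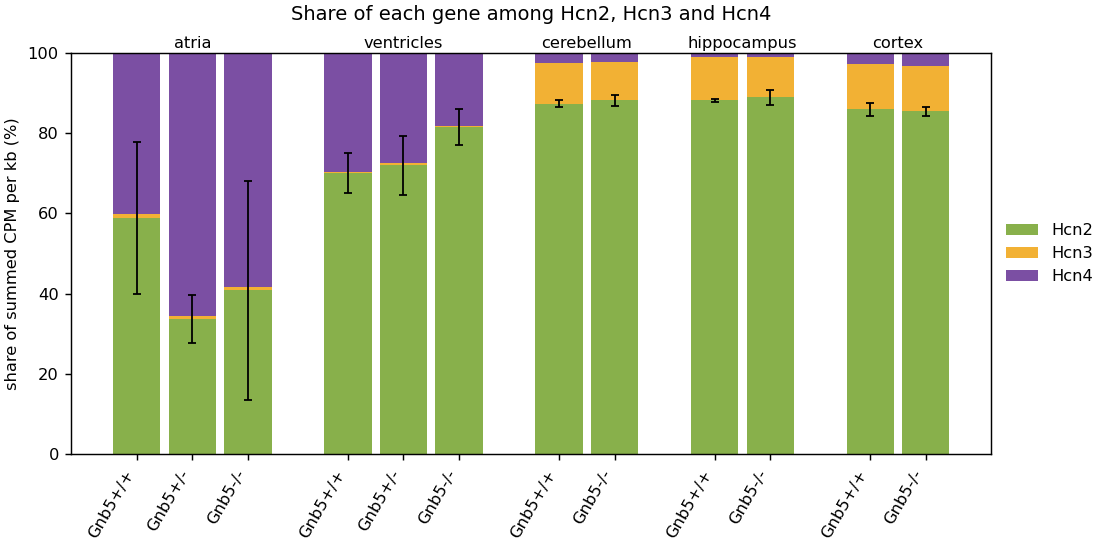
Stacked mean shares (%) of Hcn2, Hcn3 and Hcn4 in their summed CPM per kilobase for the 12 groups; the error bar is the SD of the Hcn2 share among 6 mice. Hcn2 takes 85 to 89% in every brain group, whereas Hcn4 takes 18 to 65% in the heart groups.

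The wild-type tissues were compared in edgeR over 30 libraries and 19477 genes, with p-values adjusted by Benjamini-Hochberg. Most genes differ between organs, as 90.9% of all genes tested were called at an adjusted p below 0.05 between the mean of the heart tissues and the mean of the brain regions, and all 3 HCN genes were among them. The median log2 fold change of all genes tested was -0.22 in this comparison. Hcn2 was 5.91-fold lower in heart than in brain (log2 fold change -2.56, SE 0.080, edgeR adjusted p = 2.87e-24). Hcn3 was 79.7-fold lower in heart (log2 fold change -6.32, SE 0.17, edgeR adjusted p = 4.82e-26). Hcn4 went the other way and was 4.47-fold higher in heart (log2 fold change 2.16, SE 0.18, edgeR adjusted p = 1.44e-12). In bulk tissue fewer cells of a type and less RNA per cell cannot be told apart.

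In ventricles of the 6 wild-type mice, Hcn2 stood at 18.5, 26.2, 13.6, 22.8, 17.5 and 23.1 CPM. In atria of the same mice, in the same order, it stood at 7.88, 6.83, 6.63, 10.1, 5.63 and 6.01 CPM. Atria were lower in 6 of 6 mice and the groups did not overlap. Hcn2 was 2.73-fold lower in atria than in ventricles (log2 fold change -1.45, SE 0.12, edgeR adjusted p = 8.96e-12), in a comparison that called 51.6% of all genes. The ventricular muscle list (Myl2, Myl3, Irx4, Hey2) summed to 75.7 to 1341 CPM in the wild-type atria and to 13989 to 14746 CPM in the ventricles. How far ventricular muscle in the atrial samples bears on the atrial Hcn2 level was not tested.

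Hcn4 was not called between wild-type atria and ventricles in the fit with tissue alone. In atria its values were 5.66, 21.9, 4.58, 7.77, 22.4 and 5.20 CPM. In ventricles of the same mice, in the same order, they were 14.5, 22.9, 11.04, 12.8, 20.5 and 16.8 CPM. A pair of atria, replicates 2 and 5, were at the level of the ventricles and the other 4 below all ventricles. The log2 fold change of atria over ventricles was -0.52 (SE 0.28, edgeR adjusted p = 0.125), and atria were lower in 5 of 6 mice. With the mouse as a block, since both tissues came from the same animals, it was -0.62 (edgeR adjusted p = 0.0340), whereas the other alternatives in wild-type mice gave an adjusted p of 0.0941 to 0.174. In the Gnb5-/- mice the same contrast had the opposite sign, at 0.99 (edgeR adjusted p = 0.0369), in a fit without a mouse block. That fit called 8103 of 19425 genes. The sign held without each of the 3 brain libraries that stood apart, which share the fit, but this does not test the spread of the atria. In Gnb5-/- replicates 1 and 6 atria were lower than ventricles, at 6.91 against 11.7 CPM and 2.00 against 11.5. In replicates 2 to 5 atria were higher. Hcn3 was not called between the heart tissues (log2 fold change 0.28, SE 0.46, edgeR adjusted p = 0.647).

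Hcn2 and Hcn3 differed from each brain region in both heart tissues. The 6 comparisons of a heart tissue with a brain region called 86.3% of all genes for atria against cerebellum, 86.4% against hippocampus and 87.0% against cortex, and 86.6%, 86.9% and 87.4% for ventricles against the same regions. All 3 genes were called in all 6. Hcn2 was 8.38- to 11.8-fold lower in atria and 3.06- to 4.30-fold lower in ventricles than in the brain regions. Hcn4 was higher in atria than in cerebellum by 3.24-fold, in hippocampus by 7.68-fold and in cortex by 2.09-fold, and higher in ventricles by 4.64-, 11.01- and 2.99-fold. These folds depend on the scaling. Scaled by total counts, the mean Hcn4 level was 1.99-, 4.93- and 1.31-fold higher in atria than in cerebellum, hippocampus and cortex, and 2.19-, 5.44- and 1.44-fold higher in ventricles. Hcn2 was then 13.5- to 18.6-fold lower in atria and 6.43- to 8.86-fold lower in ventricles than in the brain regions. The directions were those of the TMM levels. Against cortex, Hcn4 was higher in atria in 4 of the 6 wild-type mice, and in ventricles in 6 of 6.

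Within the brain, Hcn4 was lowest in hippocampus. In wild-type hippocampus it ranged from 1.19 to 1.64 CPM with a median of 1.48, in cerebellum from 2.39 to 3.90 with a median of 3.39, and in cortex from 4.63 to 6.38 with a median of 5.26. The 3 regions did not overlap for this gene. Hcn4 was 3.68-fold lower in hippocampus than in cortex (log2 fold change -1.88, SE 0.30, edgeR adjusted p = 9.79e-06) and 2.37-fold higher in cerebellum than in hippocampus (log2 fold change 1.25, SE 0.30, edgeR adjusted p = 0.000600). The contrast of cerebellum with cortex lay at the threshold (log2 fold change -0.63, SE 0.29, edgeR adjusted p = 0.0498). The comparisons between brain regions called 68.3% of all genes for cerebellum against hippocampus, 69.1% for cerebellum against cortex and 33.5% for hippocampus against cortex. Genes of the thalamus, a region next to the dissected ones where Hcn4 is known to be abundant, summed over 8 markers to 77.0 to 84.6 CPM in wild-type cortex, 66.1 to 80.9 in hippocampus and 117 to 143 in cerebellum. The sums turn on a few abundant markers, Prkcd above all in cerebellum, and the part of thalamic tissue in the Hcn4 values was not tested.

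Hcn2 and Hcn3 were highest in cortex. In wild-type cortex Hcn2 ranged from 77.6 to 89.0 CPM, in hippocampus from 63.2 to 74.6 and in cerebellum from 55.3 to 63.5. Cortex was higher than both other regions in 6 of 6 mice. The log2 fold change of cerebellum against cortex was -0.49 (SE 0.11, edgeR adjusted p = 0.000172), and that of hippocampus against cortex -0.31 (SE 0.11, edgeR adjusted p = 0.0245). Hcn3 ranged from 12.6 to 16.3 CPM in cortex, 10.3 to 12.04 in hippocampus and 7.65 to 10.2 in cerebellum. Its log2 fold changes against cortex were -0.67 in cerebellum (SE 0.15, edgeR adjusted p = 0.000171) and -0.40 in hippocampus (SE 0.15, edgeR adjusted p = 0.0346). Between cerebellum and hippocampus neither gene passed the threshold, although cerebellum was lower in 6 of 6 mice for both. The adjusted p was 0.141 for Hcn2 and 0.103 for Hcn3 in edgeR.

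The same question was asked of 14 genes whose products are known to bind, traffic or regulate HCN channels. Between heart and brain 13 of the 14 were called, 5 higher and 8 lower in heart, near the share of 90.9% of all genes. Cav3, the caveolin of striated muscle, was higher in heart with a log2 fold change of 8.23 (SE 0.15). Pex5l, which encodes TRIP8b, the auxiliary subunit that sets HCN trafficking and cyclic AMP response in neurons, was lower in heart with a log2 fold change of -6.94 (SE 0.10), and stood at 0.797 ± 0.328 CPM in atria and 134.2 ± 4.54 in cortex. Apba2, a neuronal adaptor, was lower in heart with a log2 fold change of -7.96 (SE 0.094). Kcne2, a potassium channel subunit that also marks choroid plexus, was at 0 in all wild-type ventricles and ran from 0.0602 to 6.13 CPM in wild-type hippocampus.

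Among the partners that were higher in heart, Mrvi1, which encodes IRAG1, an endoplasmic reticulum protein that promotes the opening of HCN4, had a log2 fold change of 3.88 (SE 0.091). Lrmp, whose product is its relative and blunts the cyclic AMP response of HCN4, had a log2 fold change of 1.76 (SE 0.14). Both were thus higher in the organ where Hcn4 was higher, in a comparison that called 90.9% of all genes. Between wild-type atria and ventricles Mrvi1 and Hcn4 had opposite signs, with Hcn4 at -0.52. Between atria and ventricles 10 of the 14 partners were called (51.6% of all genes), 3 higher and 7 lower in atria, with Mrvi1 at a log2 fold change of 2.38 (SE 0.14) and Nedd4l, a ubiquitin ligase, at 0.73 (SE 0.060), against Apba2 at -1.39 (SE 0.21) and Cav3 at -0.68 (SE 0.15). The 3 contrasts of brain regions called 10 of the 14 partners for cerebellum against hippocampus (68.3% of all genes), 9 for cerebellum against cortex (69.1%) and 6 for hippocampus against cortex (33.5%). The median log2 fold change of the partners was -0.28 between heart and brain, close to the -0.22 of all genes.

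**Figure D3:**
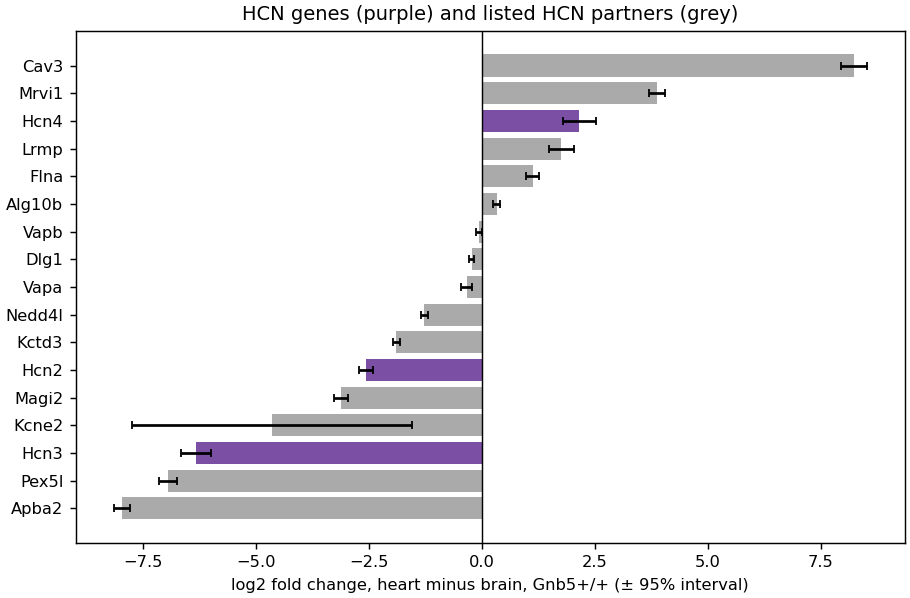
Log2 fold change between heart (mean of atria and ventricles) and brain (mean of 3 regions) in wild-type mice for Hcn2, Hcn3 and Hcn4 (purple) and 14 partner genes (grey); bars are edgeR estimates and whiskers 95% intervals, with the whisker of Kcne2 resting on few counts. Hcn4 at 2.16 lies on the side of Cav3 and Mrvi1, and Hcn3 at -6.32 on the side of Pex5l and Apba2.

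Genotype was compared next, since the study asked what loss of Gnb5 changes in heart and brain. None of the HCN genes was called in any of the 9 genotype comparisons (edgeR quasi-likelihood test, adjusted p below 0.05). Between Gnb5-/- and Gnb5+/+ mice, 0.253% of the genes tested were called in atria, 0.188% in ventricles, 0.0817% in cerebellum, 0.165% in hippocampus and 0.0557% in cortex. Between Gnb5+/- and Gnb5+/+ mice the share was 0.0124% in atria and 0.0202% in ventricles, and between Gnb5-/- and Gnb5+/- mice 0.0494% and 0.0874%. Calls were thus rare for any gene. By DESeq2 none of the HCN genes was called either. At an unadjusted p below 0.05, Hcn4 passed in Gnb5-/- ventricles against both other genotypes and in Gnb5+/- atria against Gnb5+/+. Hcn2 passed in Gnb5-/- ventricles against Gnb5+/+. In ventricles 711 of 14866 genes passed this cut for Gnb5-/- against Gnb5+/+, and 1307 for Gnb5-/- against Gnb5+/-. In atria 1169 of 16181 genes passed it for Gnb5+/- against Gnb5+/+. With 6 mice against 6, the smallest p of the exact permutation test is 0.00216.

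**Figure D4:**
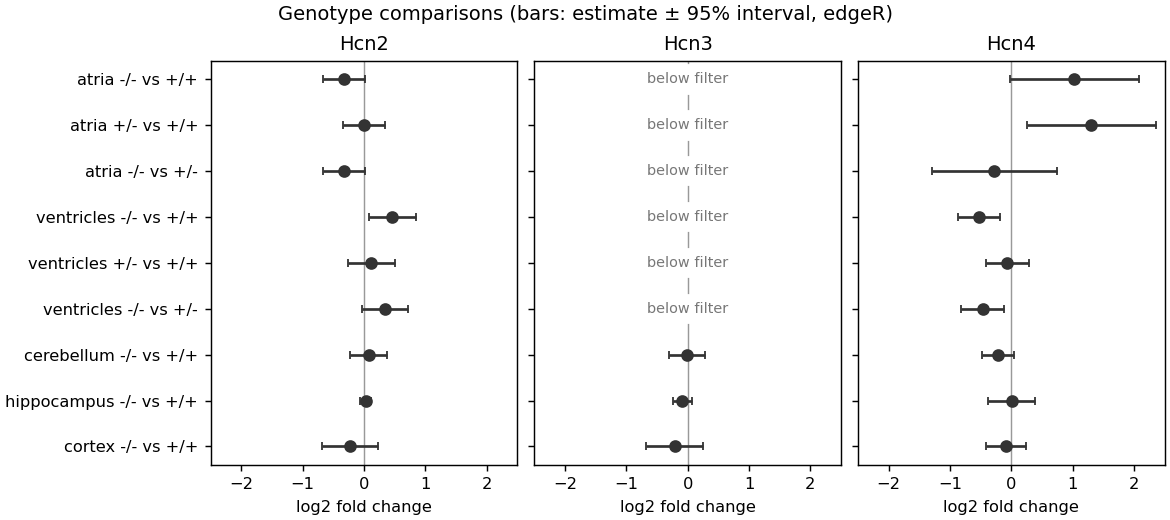
Log2 fold change of Hcn2, Hcn3 and Hcn4 in the 9 genotype comparisons (points are edgeR estimates, bars 95% intervals); Hcn3 was below the count filter in heart. The widest bars are those of Hcn4 in atria, where Gnb5+/- against Gnb5+/+ stands at 1.30, and the narrowest that of Hcn2 in hippocampus at 0.03.

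In ventricles the values of Hcn4 were 11.7, 13.1, 11.6, 10.6, 10.2 and 11.5 CPM in the Gnb5-/- mice. In Gnb5+/+ mice they were 14.5, 22.9, 11.04, 12.8, 20.5 and 16.8, and in Gnb5+/- mice 22, 14.01, 16.1, 9.37, 14.8 and 18 CPM. All 6 Gnb5-/- ventricles lay below the Gnb5+/+ mean of 16.4, but the groups overlapped. The log2 fold change was -0.53 (SE 0.18) against Gnb5+/+, with an edgeR adjusted p of 0.670 (unadjusted p = 0.00767) and an exact permutation p of 0.0195. Against Gnb5+/- it was -0.46 (SE 0.18, edgeR adjusted p = 0.470, exact permutation p = 0.0433), and between Gnb5+/- and Gnb5+/+ it was -0.06 (SE 0.18). The Gnb5-/- values also had the smallest spread, with an SD of 0.993 CPM against 4.58 in Gnb5+/+ and 4.22 in Gnb5+/- mice.

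Hcn2 in ventricles leaned the other way. It stood at 42.0, 22.9, 19.3, 26.9, 27.9 and 29.8 CPM in the Gnb5-/- mice, against 13.6 to 26.2 with a median of 20.7 in Gnb5+/+ and 13.3 to 31.2 with a median of 22.3 in Gnb5+/- mice. Of the 6 Gnb5-/- values 5 lay above the Gnb5+/+ mean, and the groups overlapped. The log2 fold change against Gnb5+/+ was 0.46 (SE 0.19), with an edgeR adjusted p of 0.925 (unadjusted p = 0.0274) and an exact permutation p of 0.0455. As shares of the 3 genes, Hcn4 held 18.2 ± 4.21% in Gnb5-/- ventricles, 29.6 ± 5.02% in Gnb5+/+ and 27.5 ± 7.11% in Gnb5+/- ventricles (mean ± SD, n = 6).

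Atrial Hcn4 varied widely between mice of the same genotype. In Gnb5+/+ mice 4 of 6 atria lay between 4.58 and 7.77 CPM and the other 2 at 21.9 and 22.4. The Gnb5+/- atria held 35.99, 31.2, 37.6, 15.01, 19.96 and 25.7 CPM, all above the Gnb5+/+ mean of 11.3. The Gnb5-/- atria held 6.91, 25.4, 23.4, 37.8, 40.7 and 2.00 CPM, and included both the lowest and the highest of the 18 values. Gnb5+/- stood 1.30 above Gnb5+/+ on the log2 scale (SE 0.54), with an edgeR adjusted p of 0.651 (unadjusted p = 0.0248) and an exact permutation p of 0.0173. For Gnb5-/- against Gnb5+/+ it was 1.03 (SE 0.53, edgeR adjusted p = 0.665, exact permutation p = 0.370).

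The atrial spread of Hcn4 went with that of some other sinoatrial node genes. A list of 14 such genes was summarised as their mean log2 CPM, and after subtracting each genotype's mean its correlation with Hcn4 over the 18 atria was r = 0.959 (Pearson; Spearman's rho 0.946), with a permutation p of 1e-05 for each, the smallest that 100000 resamples can give. Without the 2 atria farthest from the median r was 0.942 (permutation p = 1e-05). The list was chosen with earlier results of these data known, so these p-values are not those of a list fixed beforehand. The correlations that follow are descriptions. Within genotypes, with 6 atria each, r was 0.967 for Gnb5+/+, 0.7998 for Gnb5+/- and 0.973 for Gnb5-/-.

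Single genes of the list differed in how far they followed Hcn4. Shox2, a homeobox factor of the developing node, followed it most closely (r = 0.936 over 18 atria), with Isl1, a LIM homeobox factor of pacemaker cells (r = 0.901), Vsnl1, a neuronal calcium sensor found in the node (r = 0.844), and Tbx3, a repressor of the working muscle programme (r = 0.809). Smoc2 (r = 0.579) and Ntm (r = 0.517) came next. The other 8 genes had r at or below 0.367, the value of the connexin gene Gjd3. Among them the calcium channel genes Cacna2d2, Cacna1g and Cacna1d had r of 0.237, 0.222 and 0.175, the connexin gene Gjc1 0.0899 and Cpne5 0.0543. Tbx18, a factor of the node's head that other atrial cells also express, had r of -0.03 and Bmp4 of -0.06. Of all 14198 genes compared, Shox2 ranked first in likeness to Hcn4 in atria. The next were Chrnb4 (r = 0.921), a nicotinic receptor subunit, Alox8 (0.909), Cntn2 (0.909), a contactin that marks conduction cells, Isl1, Nptx1 (0.896), Tenm4 (0.889), Tub (0.887), Nfasc (0.886) and Ift88 (0.886). These points share libraries and dissections, and the correlations are descriptions.

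**Figure D5:**
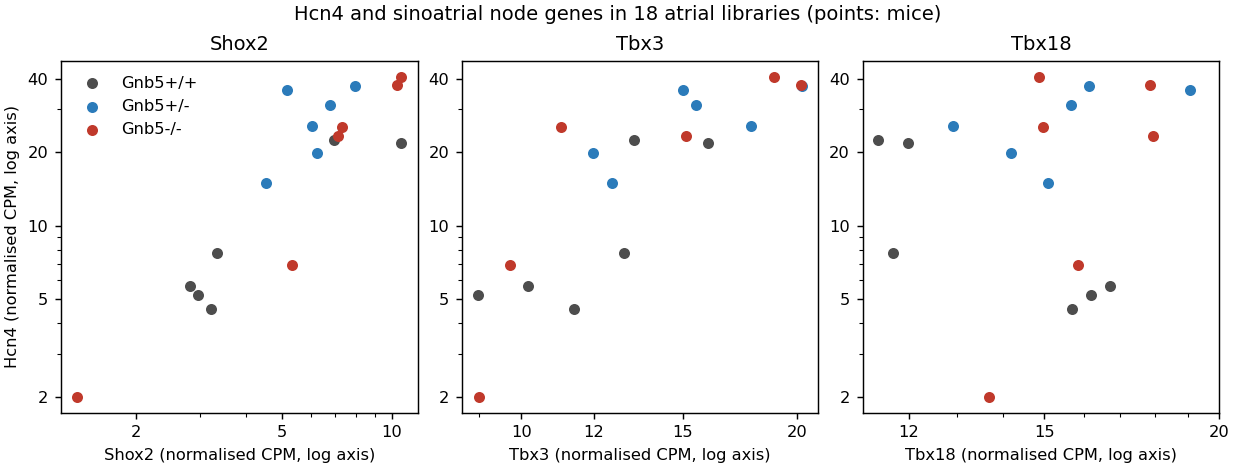
Hcn4 against Shox2, Tbx3 and Tbx18 in the 18 atrial libraries (normalised CPM, log axes); each point is 1 mouse, coloured by genotype. Hcn4 rises with Shox2 and Tbx3 (r = 0.936 and 0.809 after subtracting genotype means) and has no such slope with Tbx18 (r = -0.03).

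By genotype, the node list averaged 2.98 ± 0.29 for Gnb5+/+ atria, 3.39 ± 0.14 for Gnb5+/- and 3.28 ± 0.43 for Gnb5-/- (mean log2 CPM ± SD, n = 6), in the order of the Hcn4 means. None of its 14 genes was called in an atrial comparison with Gnb5+/+, where 0.0124% of all genes were called for Gnb5+/- and 0.253% for Gnb5-/-. Their median log2 fold change was 0.25 in Gnb5+/- and 0.20 in Gnb5-/- atria, where that of all genes was within 0.01 of 0. Summed, they gave 242 to 334 CPM per Gnb5+/+ atrium sample, 299.7 to 393 per Gnb5+/- and 249 to 365 per Gnb5-/- sample, and of the 4 defining transcription factors Isl1 alone was at 0 in any library. The part of nodal tissue in the atrial differences of Hcn4 was not tested.

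In ventricles 11 genes of the node list were tested. Tbx18 was the only one called, between Gnb5-/- and Gnb5+/+ mice, where 0.188% of all genes were called. It fell from 6.40 ± 0.772 CPM in Gnb5+/+ to 4.08 ± 0.355 in Gnb5-/- ventricles (mean ± SD, n = 6; log2 fold change -0.66, SE 0.12, edgeR adjusted p = 0.0136), and stood at 4.95 ± 0.508 in Gnb5+/- mice. None of the HCN partners tested was called in a genotype comparison by edgeR, nor was any gene of the other marker lists reported here. Those comparisons called 0.0124 to 0.253% of all genes. DESeq2 called no partner either, but 1 gene of the hippocampal list in Gnb5-/- against Gnb5+/+ hippocampus. Between wild-type atria and ventricles 11 of 13 node genes tested were called (51.6% of all genes), 8 higher and 3 lower in atria, with Cpne5, Cacna2d2, Vsnl1 and Cacna1d at log2 fold changes of 5.20, 4.57, 3.76 and 3.22. Tbx3 was among those lower in atria.

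Whether the Gnb5-/- effect differed between tissues was tested as an interaction. For Hcn4 the effect in atria minus that in ventricles was 1.55 (log2, SE 0.60, unadjusted p = 0.0134), and for Hcn2 -0.79 (SE 0.27, unadjusted p = 0.00657). Both had an edgeR adjusted p of 1.00 over 16507 genes, of which 0.0121% were called. Tbx18 was 1 of these (difference 0.84, SE 0.16, adjusted p = 0.0494), but with the mouse as a block its adjusted p was 0.112 and no gene was called. In that blocked fit Hcn2 was at -0.79 (SE 0.17, edgeR unadjusted p = 0.000139, adjusted p = 0.164). Hcn4 was at 1.38 there (SE 0.52, edgeR unadjusted p = 0.0138). In the brain no HCN gene had an interaction past the threshold, with or without each of the 3 libraries that stood apart, and with 0.0206% of genes called for cerebellum against hippocampus, 0.0206% for cerebellum against cortex and 0% for hippocampus against cortex.

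Hcn2 in atria overlapped between genotypes. Gnb5+/+ mice had 5.63 to 10.1 CPM, Gnb5+/- mice 5.30 to 9.29 and Gnb5-/- mice 3.99 to 7.18. Gnb5-/- differed from Gnb5+/+ by a log2 fold change of -0.33 (SE 0.18, edgeR adjusted p = 0.687), and Gnb5+/- by 0.00 (SE 0.18). Hcn3 in heart held 0 to 18 counts in atria and 0 to 10 in ventricles, too few for the test. For Gnb5+/+, Gnb5+/- and Gnb5-/- mice its mean was 0.153, 0.177 and 0.173 CPM in atria, and 0.122, 0.165 and 0.163 CPM in ventricles.

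In brain the genotypes gave small estimates. In hippocampus Hcn2 stood at 68.3 ± 3.75 CPM in Gnb5+/+ and 69.7 ± 4.26 in Gnb5-/- mice, with a log2 fold change of 0.03 and a 95% interval from -0.06 to 0.12. Hcn3 there had a log2 fold change of -0.09 (SE 0.079) and Hcn4 of 0.00 (SE 0.20). In cerebellum the log2 fold changes were 0.08 for Hcn2 (SE 0.15), -0.02 for Hcn3 (SE 0.15) and -0.21 for Hcn4 (SE 0.13). All 6 Gnb5-/- cerebella lay below the Gnb5+/+ mean of 3.29 CPM for Hcn4, with overlapping groups and an exact permutation p of 0.139.

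In cortex 1 Gnb5-/- library lay far below the others. Hcn2 stood at 98.6, 86.3, 23.3, 79.6, 65.02 and 83.5 CPM, and Hcn3 at 15.2, 14.9, 3.92, 14.7, 11.7 and 14.1. Replicate 3, the library that stood furthest apart, was the lowest for both genes and for Hcn4, at 2.72 CPM. The log2 fold changes against Gnb5+/+ were -0.23 for Hcn2 (SE 0.24), -0.21 for Hcn3 (SE 0.24) and -0.09 for Hcn4 (SE 0.17). Replicate 5 was the second lowest for Hcn2 and Hcn3. Without replicate 3 the log2 fold changes were -0.05, -0.04 and 0.02, and without replicate 5 they were -0.19, -0.20 and -0.07. In that library the cortical factor Cux2 was also the lowest of the 6, at 36.7 CPM, while Tbr1 was the highest at 182 CPM. In Gnb5-/- cerebellum replicate 2, Hcn2 was at 31.7 CPM against 61.3 to 71.2 in the other 5, Hcn3 at 5.38 and Hcn4 at 2.24, each the lowest of its group, and choroid plexus genes summed to 629 CPM against 9.55 to 14.7 in Gnb5+/+ cerebellum. Without it the log2 fold changes in cerebellum were 0.21, 0.09 and -0.15 for Hcn2, Hcn3 and Hcn4, with an edgeR adjusted p of 0.106 for Hcn2 (unadjusted p = 0.000687). The part of these marker levels in the HCN values was not tested.

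Over all 72 libraries the genes most like each HCN gene differed. For Hcn2 they were Map7 (r = 0.975), Tnik (0.960), Ptprn (0.960), Mapt (0.957) and Aldh5a1 (0.952), of 16135 genes compared by log2 CPM. For Hcn3 they were Mro (0.983), Spock1 (0.979), Cyp4x1 (0.978), Ppp2r2c (0.978) and Mtmr7 (0.978). For Hcn4 they were Arhgap10 (0.880), Fign (0.878), Lepr (0.868), Cdc42ep3 (0.861) and Afap1l1 (0.857). The 72 libraries share the contrast of heart with brain, so these values are descriptions, and no gene was in more than 1 of the 3 lists.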

How the data were processed

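Total RNA of 72 tissue samples was sequenced after stranded library preparation. The deposited files hold read counts per Ensembl gene, without normalization, which the authors made with HTSeq 0.9.1 from reads trimmed with cutadapt 1.8, cleared of ribosomal and low-complexity sequences and aligned to GRCm38 by STAR 2.5.3a. Reads assigned to no counted feature (2.85 to 17.0% per library) were left out. Of 53715 identifiers, 53620 matched GENCODE M21 and 95 did not.

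Groups came from the labels. Counts were tested with edgeR 4.0.16 in R 4.3.3 (TMM, filterByExpr minimum of 10, quasi-likelihood test, Benjamini-Hochberg over all genes tested), with genotype alone within each tissue and tissue alone in wild-type mice. Levels are CPM with TMM factors over all 72 libraries. For single genes an exact permutation test, two-sided, was run on log2 CPM (prior count 2). SE is the log2 fold change over the root of F, and 95% intervals are normal. The scripts were tested on simulated data.

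Same-numbered replicates are 1 mouse across tissues, as labelled, and different mice across genotypes, where their deviations did not pair (correlations -0.20 to 0.11). Alternatives were DESeq2 1.42.0, RLE factors, other filters, a replicate block, fewer genotypes and, chosen after seeing the data, leaving out 3 libraries in turn.

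Named were the HCN genes, Gnb5, every list gene called between genotypes by edgeR, the 4 called list genes of largest change between tissues, and the genes most correlated with each HCN gene. Pklr, Lrmp, Cux2, Tbr1, Prkcd and the correlated node genes were named after their values were seen. The HCN genes and lists were chosen with earlier results of these data known. Counts over the marker list of cerebral cortex are not reported here.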

Additional observations from a re-analysis of the deposited data

Results flagged for a closer look

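In each of the 36 groups of 6 values (3 genes in 12 groups) the highest and the lowest library were compared with the others by the ratio of their gap to the group's range, against Dixon's 95% critical value, which chance passes in about 1 of 20 groups. Hcn2 in Gnb5-/- cerebellum replicate 2, at 31.7 CPM, lay far below the other 5. Hcn2 in Gnb5+/+ cortex replicate 5, at 77.6 CPM, was below the other 5, which stood at 85.1 to 89.0. Hcn3 in Gnb5-/- atria replicate 4, at 0.409 CPM, was above the other 5, and rested on 18 counts. Hcn3 in Gnb5-/- cortex replicate 3, at 3.92 CPM, was below the other 5.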

How the results depend on the processing

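No HCN gene was called between genotypes under any alternative, and the heart against brain contrasts of the HCN genes kept their calls and directions. Near 0, log2 fold changes turned sign: Hcn2 in Gnb5+/- against Gnb5+/+ atria from -0.00085 to 0.0080 without a filter, 0.0036 with at least 10 counts in every library and 0.0040 with 2 genotypes alone; Hcn3 in Gnb5-/- cerebellum to 0.087 without replicate 2; Hcn4 in Gnb5-/- cortex to 0.019 without replicate 3; the difference of the Gnb5-/- effect between hippocampus and cortex from 0.13 for Hcn3 and 0.0996 for Hcn4 to -0.041 and -0.0071 without cortex replicate 3 (0.13 and 0.098 without cerebellum replicate 2); and Hcn4 in Gnb5-/- hippocampus to -0.039 with the replicate block. With the mouse as block Hcn4 was called between wild-type atria and ventricles (-0.62), and the block changed no other call of an HCN gene. In the test of the Gnb5-/- effect in atria against ventricles it lowered the genes called from 2 to 0, Tbx18 among those lost, and in that of cerebellum against cortex from 4 to 2. In the knockout libraries Hcn4 in atria against ventricles was 0.99, and these were no longer called: Hcn2 at -0.25 (cerebellum against cortex) and -0.065 (hippocampus against cortex), Hcn3 at -0.54 and -0.28, and Hcn4 at -0.81 (cerebellum against cortex). Among the knockout libraries, leaving out 1 of the 3 that stood apart gave -0.43 to -0.11 for Hcn2, -0.72 to -0.43 for Hcn3 and -0.94 to -0.75 for Hcn4 in cerebellum against cortex (-0.55 for Hcn3 and -0.84 for Hcn4 without cortex replicate 5), all 3 called without cortex replicate 3 and none without either of the others, and -0.25 to -0.064 for Hcn2 and -0.46 to -0.28 for Hcn3 in hippocampus against cortex (-0.095 and -0.30 without cortex replicate 5), not called. Hcn4 in atria against ventricles stayed at 0.99. Without a filter, Hcn2 (-0.29) and Hcn3 (-0.38) in hippocampus against cortex and Hcn4 (-0.63) in cerebellum against cortex just missed the threshold. Between cerebellum and hippocampus DESeq2 called Hcn2 (-0.23) and Hcn3 (-0.33), and RLE factors called Hcn3 (-0.33). The cause was not tested. DESeq2 called more genes than edgeR between Gnb5-/- and Gnb5+/+ mice, with 110 against 41 in atria, 63 against 28 in ventricles, 49 against 14 in cerebellum, 104 against 29 in hippocampus and 25 against 10 in cortex. Without cerebellum replicate 2 edgeR called 62 genes there, and without cortex replicate 3 it called 22. Without cerebellum replicate 2 it called 7 genes for the difference of the Gnb5-/- effect between cerebellum and cortex, against 4 with it. Scaling by total counts multiplied levels by 0.575 to 0.946 in heart and 1.29 to 1.42 in brain. Counts of Hcn3 in heart, at most 18, limit what can be said of it there.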
